A study of Mus musculus with 6 samples.

Results

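The 10 genes described here encode the feedback loop of the circadian clock and its bHLH repressor Bhlhe41. They are Clock, Per1, Per2, Per3, Cry1, Cry2, Bhlhe40, Bhlhe41, Dbp and Nfil3, 10 of 18193 genes that a probe set of the arrays names alone. The list was drawn up with the difference between the groups already known, so that for these genes that difference is a description and carries no test. Each gene is read from the brightest of its probe sets over the 6 arrays, and its other probe sets are given beside it; 22 probe sets name the 10 genes.

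Mouse neural stem cells in which green fluorescent protein (GFP) reports Spot14 were compared on expression arrays, 3 arrays of Spot14 GFP positive and 3 of Spot14 GFP negative cells, which the submitters call biological replicates. Spot14 is the product of Thrsp, a thyroid hormone responsive gene known from lipogenic tissues, and the series title sets the comparison in the context of lipogenesis in adult neural stem cells. The labels tell the groups apart by GFP status, and each array stands for 1 replicate. GFP negative replicate 3 lay apart from the other arrays. The strain, the age of the animals, how cells were grown and sorted, and the hour of collection are not given in the sources used here. All values are log2 signals made by the submitters with GCRMA, which subtracts a background modelled from probe sequence, so that log2 4 or less is close to background.

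In the clock, the activators CLOCK, or its paralogue NPAS2, and BMAL1 (Arntl) pair up and switch on genes that carry an E-box, among them the Per and Cry genes, Dbp and the Bhlhe40 and Bhlhe41 repressors. PER and CRY proteins return to the nucleus and block the activators, while BHLHE40 and BHLHE41 compete at E-boxes. DBP activates and NFIL3 represses through a further element, the D-box. In the brain the clock runs in neurons and in glia.

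Promoter windows were searched for the letters of elements through which clock genes are known to regulate each other. RefSeq windows (build GRCm38.p6) matched 8 of the 10 genes, Bhlhe40 and Per2 excepted. The 250 bases before each start site were searched on both strands for the E-box CACGTG, the related CACGTT, the D-box TTATGTAA or TTACGTAA, and the ROR and REV-ERB core TAGGTCA. None of these words overlaps another in the windows shown. The stretches below read 5′ to 3′ along the gene, with matches in capitals. They lie at chr6:145865421-145865670 on the minus strand for Bhlhe41, chr10:85185089-85185153 on the minus strand for Cry1, chr11:69098763-69098808 on the plus strand for Per1 and chr4:151044796-151044890 on the minus strand for Per3.

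Bhlhe41: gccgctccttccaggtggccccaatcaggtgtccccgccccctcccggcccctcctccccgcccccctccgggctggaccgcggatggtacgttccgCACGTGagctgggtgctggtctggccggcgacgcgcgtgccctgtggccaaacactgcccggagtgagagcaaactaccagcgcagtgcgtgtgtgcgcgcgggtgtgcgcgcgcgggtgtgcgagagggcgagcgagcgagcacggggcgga

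Cry1: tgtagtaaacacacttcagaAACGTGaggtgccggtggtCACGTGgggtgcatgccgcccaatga

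Per1: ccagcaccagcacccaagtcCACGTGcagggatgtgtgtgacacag

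Per3: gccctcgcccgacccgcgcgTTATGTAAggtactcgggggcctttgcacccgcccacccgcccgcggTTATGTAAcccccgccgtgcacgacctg

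Bhlhe41 holds 1 E-box, 153 bases before its start. Cry1 holds an E-box 60 bases before the start and CACGTT, on the opposite strand, at 79 bases. Per1 has an E-box at 166 bases before the first of its 2 listed starts. Per3 has the D-box TTATGTAA at 205 and at 158 bases. An E-box was found in 3 of the 8 matched genes, against 6.86% of the 27025 genes in the table. CACGTT was found in 2 (Cry1 and Cry2), against 4.50%, the D-box in 1 (Per3), against 1.10%, and TAGGTCA in 1 (Nfil3), against 2.55%. The windows of Clock and Dbp held none of these words. A match describes the letters of the window and is not evidence of binding.

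The repressor Bhlhe41 was higher in GFP positive cells by 2.71 on the log2 scale, or 6.55-fold. All its GFP negative arrays were below log2 4, close to background, so the size of that fold depends on the background correction. The differences of the other 9 lay between −0.26 and 0.60. Cry2, Bhlhe40 and Bhlhe41 were above every GFP negative array on every GFP positive array, which is 3 of 10 genes, where 13.8% of the 10531 tested genes were higher without overlap and 25.3% did not overlap in either direction. All 10 genes passed the filter on low values, log2 4 or more on at least 3 of 6 arrays, Bhlhe41 through the GFP positive arrays alone. In the limma fit over all tested genes, 1 of the 10, Bhlhe41, was past the adjusted p threshold of 0.05 and higher, as were 2.35% of all tested genes, and 0 were lower, against 2.11% (2 and 0 by an unadjusted p under 0.05). Because the list was chosen with this contrast in view, nothing is read from these counts. The median difference was 0.24 over the 10 genes and 0.00 over all tested genes.

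Bhlhe41, a transcriptional repressor that binds E-boxes, read 5.67, 5.39 and 5.49 in cells with GFP signal and 3.09, 2.27 and 3.06 in cells without it, for replicates 1, 2 and 3 in that order, as in all lists of array values that follow. The groups lay far apart, with means of 5.52 ± 0.14 and 2.81 ± 0.46 (SD, n = 3 each) and a difference of 2.71 (SE 0.26, 95% interval 2.11 to 3.31). Of all probe sets on the arrays, 41.4% had a lower mean than Bhlhe41 in GFP negative cells and 59.9% in GFP positive cells. In absolute size the difference exceeded that of 99.8% of tested genes. In these bulk samples, fewer cells that express the gene and less RNA per cell cannot be told apart.

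Only 1 of the 2 Bhlhe41 probe sets carried this difference. The other, which the array annotation ties to the gene's RefSeq transcript, lay at background in both groups, at 2.17 ± 0.03 and 2.14 ± 0.02 (SD, n = 3 each). The level of Bhlhe41 therefore rests on a single probe set, the one tied to a different accession. Its E-box is shown in capitals in the promoter above.

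**Figure D1:**
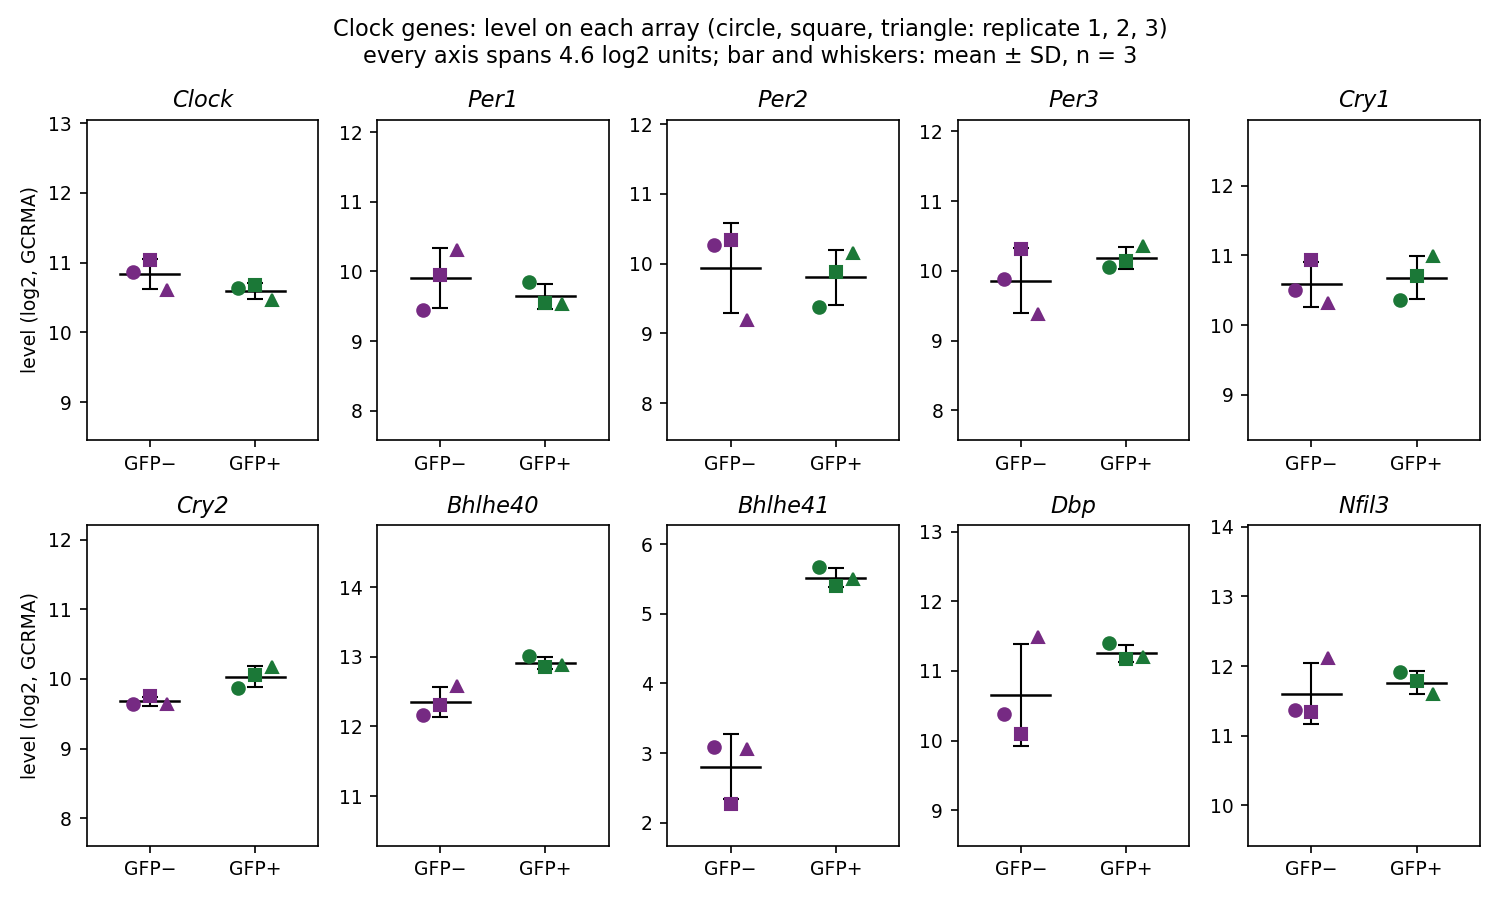
Level of each of the 10 clock genes on every array (vertical axis, log2 GCRMA value; each axis spans the same 4.6 log2 units) in GFP negative (purple) and GFP positive (green) cells; circle, square and triangle are replicates 1, 2 and 3, and bars with whiskers are mean ± SD, n = 3. Bhlhe41 sits at 2.27 to 3.09 without and 5.39 to 5.67 with GFP signal, and for 7 of the 10 genes the groups overlap.

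Bhlhe40, the paralogue of Bhlhe41, was bright on all arrays. It measured 13.01, 12.85 and 12.88 with GFP signal and 12.17, 12.30 and 12.59 without it. Every GFP positive array was higher, with GFP negative replicate 3 the nearest. The difference was 0.56 (SE 0.18, 95% interval 0.13 to 0.99), or 1.47-fold, and it was 0.47 to 0.67 with single arrays left out.

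Among the PER genes, which encode the period repressors, Per1 and Per2 had negative and Per3 a positive difference. Per1 measured 9.85, 9.55 and 9.53 with GFP signal and 9.45, 9.94 and 10.31 without it, a difference of −0.26 (SE 0.25). That difference was −0.06 without GFP negative replicate 3 and −0.49 without replicate 1 of that group. Per2 measured 9.38, 9.88 and 10.15 with GFP signal and 10.27, 10.34 and 9.19 without it, a difference of −0.13 (SE 0.36). Both genes overlapped between the groups, and for Per2 the lowest array of all was GFP negative replicate 3. The Per2 difference took the opposite sign without GFP positive replicate 1 (0.08) or without the first (0.04) or the second (0.07) GFP negative array, and was −0.50 without GFP negative replicate 3. A second Per2 probe set read 6.52 ± 0.19 in GFP positive and 6.96 ± 0.16 in GFP negative cells (SD, n = 3 each), lower on every GFP positive array. The remaining Per2 probe set lay below log2 4 on all arrays, with means of 2.61 and 2.86 and groups that overlapped.

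Per3 measured 10.05, 10.15 and 10.36 with GFP signal and 9.88, 10.32 and 9.38 without it, and the groups overlapped. Its difference was 0.33 (SE 0.26, 95% interval −0.29 to 0.94). It was 0.09 without GFP negative replicate 3 and 0.56 without replicate 2 of that group. All 4 Per3 probe sets above the filter had a positive difference, from 0.01 to 1.02. The largest came from the dimmest of the 4, at 4.57 ± 0.49 against 3.55 ± 0.38 (SD, n = 3 each), whose groups did not overlap and which passed the filter on the 3 GFP positive arrays alone. The other 2 Per3 probe sets lay below log2 4 on all arrays.

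The cryptochromes, partners of PER in repression, differed by 0.10 (Cry1) and 0.35 (Cry2). Cry1 measured 10.36, 10.70 and 10.99 with GFP signal and 10.50, 10.94 and 10.31 without it. Its difference of 0.10 (SE 0.25) was smaller than the spread between arrays, and became −0.01 with array weights, −0.05 when GFP positive replicate 3 was left out and −0.04 when the third GFP negative array was. Cry2 measured 9.87, 10.06 and 10.18 with GFP signal and 9.64, 9.76 and 9.65 without it. Every GFP positive array was above every GFP negative one, by a mean of 0.35 (SE 0.17, 95% interval −0.05 to 0.75).

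Clock, the activator of the loop, measured 10.64, 10.68 and 10.46 with GFP signal and 10.87, 11.04 and 10.60 without it. The groups overlapped, and the difference was −0.24 (SE 0.19), from −0.36 to −0.14 with single arrays left out. Of the 4 Clock probe sets above the filter 3 were negative, the brightest included, and the dimmest was positive at 0.41, with an SD of 1.25 among its GFP negative arrays.

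The output factors Dbp and Nfil3 ranged more widely among GFP negative arrays (1.38 and 0.77) than among GFP positive arrays (0.22 and 0.32). Dbp, an activator at D-boxes, measured 11.40, 11.18 and 11.19 with GFP signal and 10.38, 10.10 and 11.49 without it. GFP negative replicate 3 was thus the highest of all 6 arrays, while the other GFP negative arrays were the lowest. The difference was 0.60 (SE 0.35, 95% interval −0.22 to 1.42) with all arrays. It was 1.01 when GFP negative replicate 3 was left out, and 0.32 when replicate 2 of that group was. A second Dbp probe set differed by 1.08 and again read high on that array, 9.26 against 8.82 to 9.23 in GFP positive cells. The brighter one has a suffix that marks possible cross-hybridisation. Nfil3, the repressor at D-boxes, measured 11.91, 11.78 and 11.60 with GFP signal and 11.36, 11.34 and 12.11 without it, with the same array highest. Its difference was 0.16 (SE 0.25). It was 0.41 without GFP negative replicate 3, and 0.04 and 0.03 without the first and the second array of that group.

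**Figure D2:**
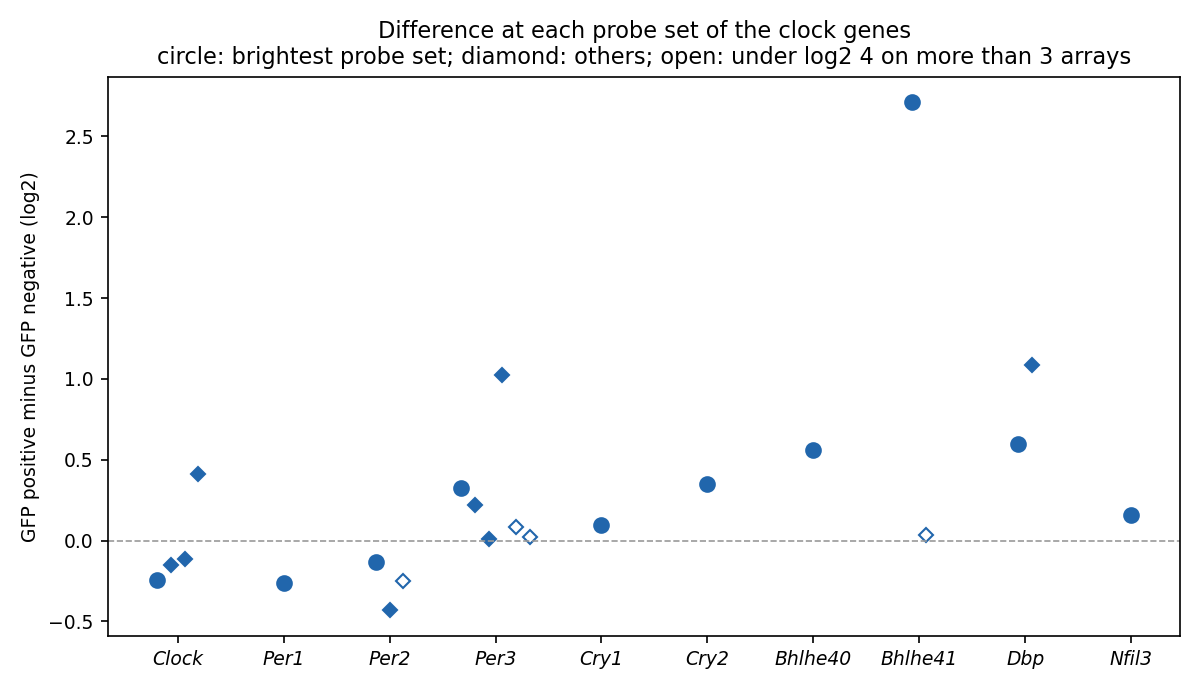
Difference between GFP positive and GFP negative means (vertical axis, log2) at each of the 22 probe sets of the 10 genes; the circle is the brightest probe set of a gene, diamonds are its others, and open symbols are probe sets below log2 4 on more than 3 arrays. Of 18 probe sets above that filter 12 were positive and 6 negative, and the Bhlhe41 circle stands at 2.71 beside an open diamond at 0.03.

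Across the genome, GFP negative replicate 3 differed from the rest of its group. For 8 of the 10 clock genes it was the highest (Per1, Bhlhe40, Dbp and Nfil3) or the lowest (Clock, Per2, Per3 and Cry1) of the 3 GFP negative arrays, as it was for 84.1% of all tested genes. Any of 3 alike arrays would also be highest or lowest for most genes, so nothing is read from the 8 of 10. Relative to the mean of the other GFP negative arrays it read 1.24 higher for Dbp and 0.76 higher for Nfil3. In the same terms Per2 differed by −1.11 and Per3 by −0.72. The median range within a group was 0.79 among GFP negative and 0.31 among GFP positive arrays for the clock genes, and 0.69 and 0.33 over all tested genes. Without this array the difference was 0.67 for Bhlhe40 and 1.01 for Dbp, while the count over all genes past the threshold went from 248 to 801 higher and from 222 to 443 lower (limma).

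**Figure D3:**
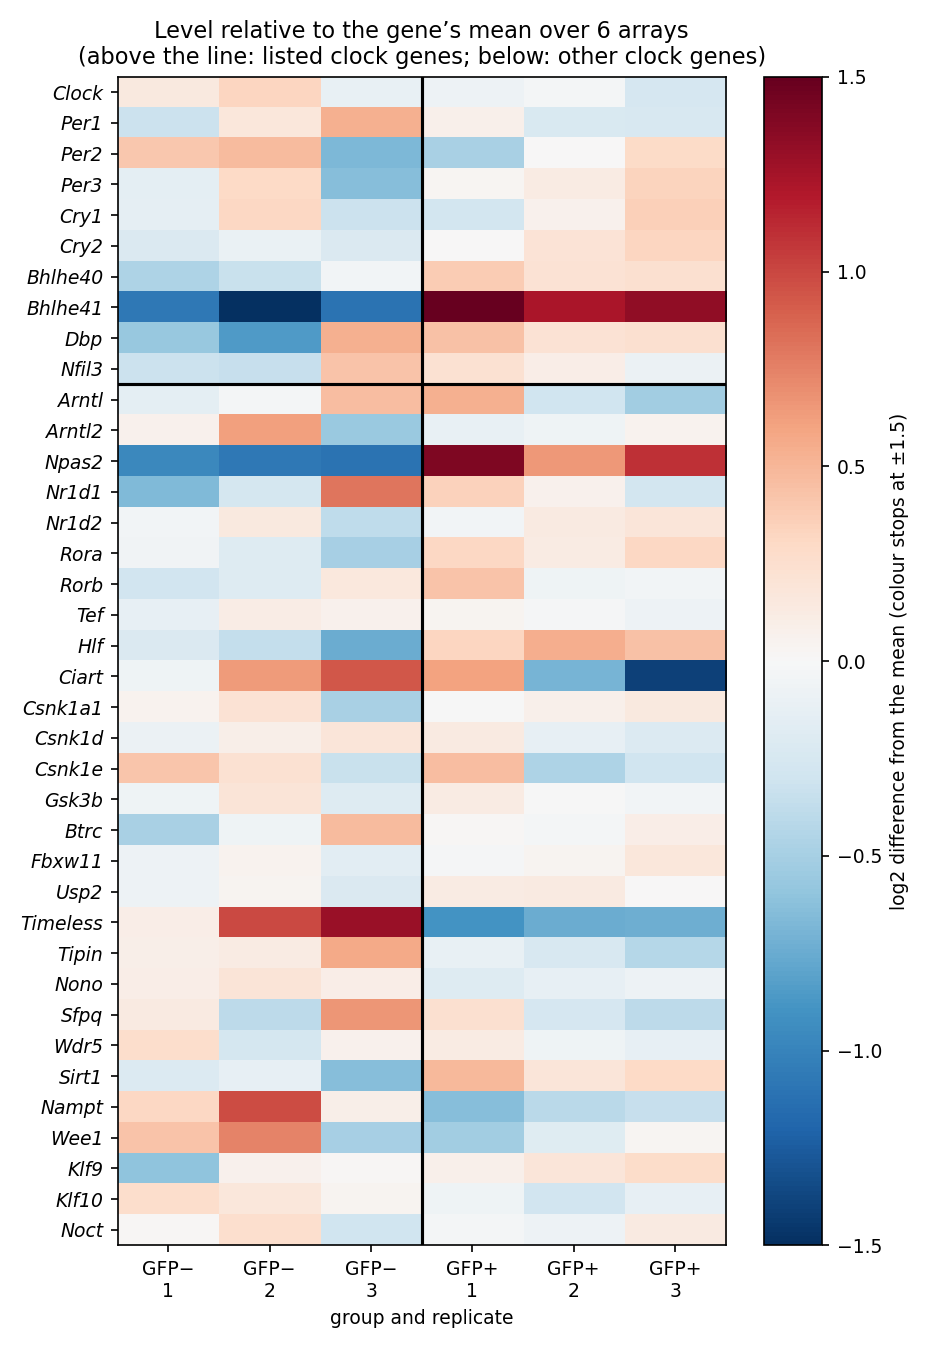
Level of the 10 listed clock genes (above the horizontal line) and of 28 other tested clock genes (below it) on each array relative to the gene's mean over 6 arrays (colour, log2, stops at ±1.5); columns are GFP negative and GFP positive replicates. The groups did not overlap for 3 listed genes, all higher, Bhlhe41 among them. Of the other genes 5 were higher without overlap, Npas2 among them, and 5 lower, against 13.8% and 11.5% of all genes tested. Dbp, Nfil3 and Nr1d1 are raised on GFP negative replicate 3.

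The rest of the pathway was taken from a list of 31 genes grouped by role, none of them among the 10, of which 28 were tested. Npas2 rose, Timeless fell and 26 did not pass, which is 7.14% called against 4.46% of all genes tested. The median difference was −0.01 over these 28 genes and 0.00 over all tested genes. At an unadjusted p under 0.05, 4 were higher and 3 lower (25.0% in all, against 18.2% of all genes tested).

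Npas2, which can replace CLOCK as the partner of BMAL1, rose 4.26-fold. It measured 7.96, 7.21 and 7.65 with GFP signal and 5.60, 5.50 and 5.46 without it. All GFP positive arrays were above all GFP negative ones, and the GFP negative arrays lay close together. The difference was 2.09 (SE 0.22, 95% interval 1.57 to 2.62; limma adjusted p = 0.00919) and exceeded in absolute size that of 99.2% of tested genes. A second Npas2 probe set was at background on all arrays, at 2.18 and 2.16. The call was lost without GFP positive replicate 1 (difference 1.92, limma adjusted p = 0.0625) or GFP positive replicate 3 (2.07, limma adjusted p = 0.0621), and the adjusted p ran from 0.00395 to 0.0671 over 16 alternatives. The other activators, named here after their values were seen, did not pass. Arntl, the gene of BMAL1, differed by −0.19 (SE 0.32, limma adjusted p = 0.823), and its paralogue Arntl2 by −0.08 (SE 0.30, 0.931).

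The nuclear receptors of the stabilising loop, which act on Arntl through ROR elements, had 4 tested members and none past the threshold (limma; 1 higher at an unadjusted p under 0.05). Nr1d2, a REV-ERB repressor, differed by 0.18 (limma adjusted p = 0.707), or 0.04 without GFP negative replicate 3, and Rora, an activator, by 0.50 (SE 0.19, limma adjusted p = 0.219). Rora was higher on every GFP positive array, at 10.93, 10.76 and 10.94 against 10.58, 10.44 and 10.13. Dimmer Rora probe sets differed by 0.75, 0.52, 0.72 and 0.81, and a further probe set near log2 4 by 0.01. With the probe set of lowest p in its place, Rora differed by 0.81 and did not pass (limma adjusted p = 0.0997). Nr1d1, named here after its values were seen, measured 9.11, 8.81 and 8.48 against 8.09, 8.49 and 9.56, and was highest on GFP negative replicate 3, as Dbp was.

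Of the PAR bZIP factors related to Dbp, neither passed. Hlf differed by 0.87 (SE 0.20, 95% interval 0.40 to 1.34; limma adjusted p = 0.0580) and was higher on every GFP positive array. A second, dimmer Hlf probe set differed by 0.26, with groups that overlapped. At the brighter one the gene passed without GFP negative replicate 3 (0.72, limma adjusted p = 0.0337), and its adjusted p ran from 0.00999 to 0.251 over 16 alternatives. Tef differed by −0.03 (limma adjusted p = 0.949), with groups that overlapped.

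Kinases, ubiquitin ligases and proteases of the clock did not pass either, with 7 tested and 0 at an unadjusted p under 0.05 by limma. Fbxw11, a substrate receptor of an SCF ligase, differed by 0.12 (95% interval −0.27 to 0.51), or −0.48 where the probe set of lowest p stood for it. The probe set that gave 0.12 has a suffix that marks possible cross-hybridisation. Without probe sets of that kind Fbxw11 differed by 0.07. Csnk1a1, a casein kinase, differed by 0.14 (95% interval −0.38 to 0.66). It differed by 0.52 at its probe set of lowest p, by −0.07 without GFP negative replicate 3 and by −0.02 with array weights.

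Among partners of PER, CRY or CLOCK 1 of 6 was past the threshold, and it was lower. At an unadjusted p under 0.05 by limma, 1 was higher and 2 were lower, Timeless included. Timeless, known in mammals also for replication fork protection, measured 4.87, 5.03 and 5.04 with GFP signal and 5.87, 6.76 and 7.07 without it. The groups did not overlap, and the difference was −1.58 (SE 0.31, limma adjusted p = 0.0357), or 3.00-fold lower. A dimmer probe set gave −1.54, with a GFP negative mean of 4.04 and all GFP positive arrays below log2 4. The call was lost without GFP positive replicate 1, 2 or 3 (limma adjusted p = 0.149, 0.128 and 0.136) or GFP negative replicate 2 (0.122), and the adjusted p ran from 0.00637 to 0.174 over 15 alternatives. Clock-controlled outputs had 5 tested members and none past the threshold (limma; 1 lower at an unadjusted p under 0.05). Nampt, named here after its values were seen, was that lower gene. It differed by −0.92 (SE 0.26, limma adjusted p = 0.104), with groups that did not overlap. A dimmer Nampt probe set gave −0.93, and the dimmest lay at background. Nampt passed with array weights and without GFP negative replicate 3. Klf10, a Krüppel-like factor, differed by −0.32 (limma adjusted p = 0.394), and Noct, a phosphatase with a daily rhythm, by 0.02 (0.977), or −0.12 without GFP negative replicate 3.

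**Figure D4:**
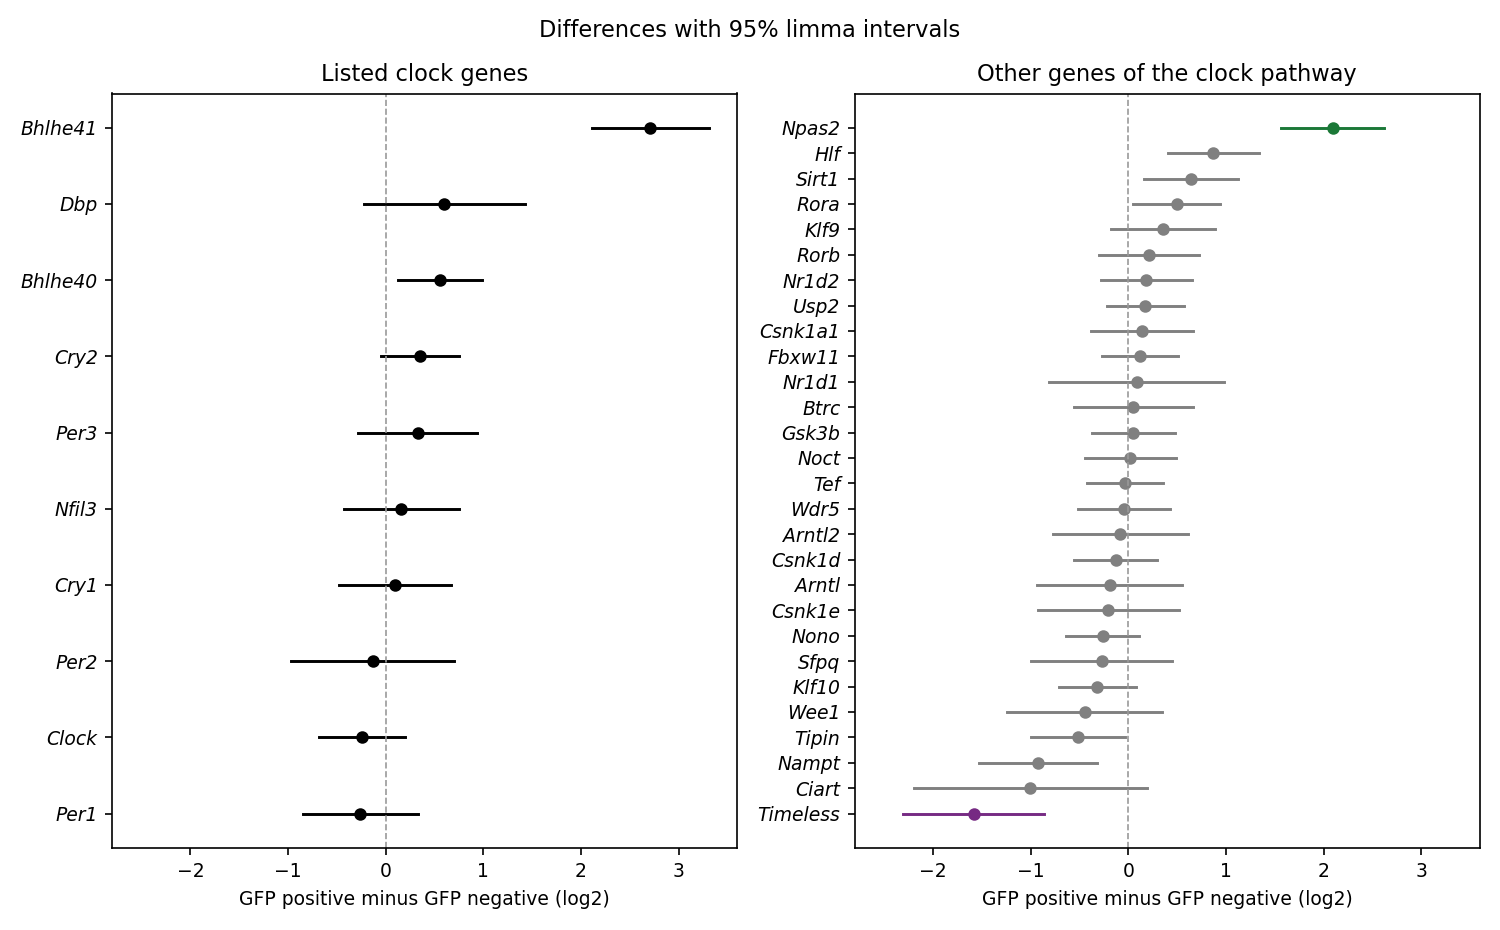
Difference between GFP positive and GFP negative cells (horizontal axis, log2) with its 95% limma interval for the 10 listed clock genes (left) and 28 other tested genes of the pathway (right); green and purple mark other genes higher or lower at a limma adjusted p under 0.05. Bhlhe41 (2.71) and Npas2 (2.09) lie farthest to the right and Timeless (−1.58) farthest to the left.

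Among tested genes outside the list, Pla2g7, Cacna1d, Rida, Ctf1 and Pdp2 had the highest Pearson r with Bhlhe41 over the 6 arrays. Their Pearson r was 0.998 to 0.999 (n = 6 arrays), and Spearman rho was 0.943 to 1.00. Each coefficient includes the gap between the groups that all these genes share, and 23 genes exceeded an r of 0.99. Pla2g7, a phospholipase that hydrolyses platelet-activating factor, measured 8.20, 8.11 and 8.05 with GFP signal and 5.68, 4.72 and 5.53 without it. Bhlhe41 lay below log2 4 on all GFP negative arrays, so its order within that group carries no information. The ranking and the rho of these genes depend in part on those values. Like Bhlhe41, these genes were all lowest on GFP negative replicate 2. On that array the Gapdh control had its largest excess of 3′ over 5′ signal (2.33), a sign of RNA quality. The part of that array in the ranking was not tested. No likeness beyond the gap between the groups is read from the ranking or the rho. Npas2 had an r of 0.972, with 86 genes above it, and Bhlhe40 one of 0.908. Per1 (−0.42), Per2 (−0.25) and Clock (−0.73) had negative coefficients.

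Markers of cell type and cell state moved with the groups. Of 8 astrocyte markers 4 were called higher (Gfap, Aqp4, Slc1a2 and Ndrg2) and 0 lower, and the log2 of their summed signal was 15.6 to 15.7 with GFP signal and 14.6 to 14.9 without it. Of 7 markers of dividing cells the 6 with a probe set were all lower, with a summed signal of 9.70 to 10.3 against 11.5 to 12.5. Of 5 neural stem cell markers 1 was called higher (Nr2e1), and Sox2 (12.40 and 11.83) and Vim (15.22 and 15.15) were far above background in both groups. Nes, at 11.22 with GFP signal and 11.71 without it, differed by −0.49 and was not past the threshold (limma adjusted p = 0.364). The summed signal was 15.6 with GFP signal and 15.4 to 15.5 without it. Below log2 4 on all arrays were 3 of 5 neuron markers (Rbfox3, Syt1 and Dcx), the 3 oligodendrocyte markers with a probe set (Mbp, Mog and Mag), 4 of 5 microglia markers (Aif1, Itgam, Cx3cr1 and P2ry12) and 3 of 4 endothelial markers (Pecam1, Cldn5 and Cdh5). The part of astrocyte and cell cycle markers in the differences of Bhlhe41, Npas2 and Timeless was not tested. Thrsp itself, the gene of the reporter, read 14.21 ± 0.10 in GFP positive and 13.56 ± 0.15 in GFP negative cells (SD, n = 3 each), higher on every GFP positive array and not past the threshold (limma adjusted p = 0.0893). The excess of 3′ over 5′ signal of the Gapdh control, a sign of RNA quality, was 2.33 on GFP negative replicate 2 and 1.14 to 1.65 on the other arrays. With it as a covariate Bhlhe41 differed by 2.41 and Npas2 by 2.07 (limma adjusted p = 0.0671).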

How the data were processed

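The authors deposited log2 values of 6 arrays, made with GCRMA (no version given), per the submitters' processing notes. GCRMA normalizes arrays to each other, so a shift of all genes together could be lost; the array medians were 3.55 to 3.66. All 45101 probe sets were used as deposited. The platform annotation gave 34945 of them exactly 1 gene (932 annotated ones had several genes or no symbol), and 34741 were found in RefSeq (GRCm38.p6) with 0 symbols changed.

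Each of 18193 genes was read from its brightest probe set. Genes at log2 4 or more on 3 or more of the 6 arrays, 10531 in all, entered the test, which was limma 3.58.1 (R 4.3.3; lmFit and eBayes without covariates) with a Benjamini-Hochberg adjusted p under 0.05 over all tested genes as the threshold. Differences are GFP positive minus GFP negative. The number of arrays limits the precision. The fit was tested on simulated data, with noise drawn for each gene alone and no array that stood apart. It recovered 1 of 50 genes changed by 0.5 on the log2 scale and 20 of 50 changed by 1. At changes of 2 and 3 it recovered 36 and 47 of 50. A gene that did not pass can therefore still differ between the groups.

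The members, the lists and the rule for named genes were chosen with earlier results of these data known. That rule takes the 10 members, Thrsp, other clock genes past the threshold or else the 2 brightest of a role, and the 5 genes most correlated with Bhlhe41. Of the 31 other clock genes 2 are not reported here, and Fbxl21 did not pass the filter. Alternatives were the filter, the scaling, the probe sets, trend and robust settings, array weights, a replicate block and each array left out.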

Additional observations from a re-analysis of the deposited data

How the results depend on the processing

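The difference of Bhlhe41 kept its sign and lay between 2.41 and 2.85 in 15 alternatives. With a filter at log2 6 it was not tested. Bhlhe41 was not past the threshold without GFP positive replicate 1, without GFP positive replicate 3 or with the 3′ to 5′ covariate. Of the other members Cry1 changed sign in 3 of 15 and Per2 in 3 of 16, and all members moved by less than 1 SD. The adjusted counts depended on single arrays. Leaving out 1 array at a time gave 1 to 801 genes higher and 0 to 443 lower, 0 to 3 members higher, and 0 to 2 other clock genes higher and 0 to 2 lower (limma; by unadjusted p under 0.05, 664 to 1892 and 529 to 1199 genes, and 2 to 4 and 2 to 4 other clock genes). Array weights gave 1051 higher and 603 lower genes, 3 members higher, and 2 other clock genes in each direction; the weights ran from 0.152 (GFP negative replicate 3) to 8.35 (GFP positive replicate 2). With the 3′ to 5′ covariate, chosen after seeing the data, 1 gene was higher and 0 lower (limma; 764 and 527 at an unadjusted p under 0.05), and 0 members and 0 other clock genes passed (4 other clock genes higher and 2 lower by unadjusted p). Without a filter 101 genes were lower and 0 other clock genes were (5 by unadjusted p). No other clock gene was lower with a filter at log2 6 (0, or 2 by unadjusted p) or with all probe sets (0, or 6 by unadjusted p), no member passed with the filter at log2 6 (0), and 2 were higher among the other clock genes with a common median. Deviations of same-numbered arrays from their group means correlated at −0.25, 0.05 and −0.50 for replicates 1, 2 and 3. With 3 arrays in each group these values cannot decide whether the numbers mark pairs. The main fit treated the arrays as unpaired. With the replicate block 19 genes were higher and 8 lower, and 0 other clock genes passed in either direction (limma; by unadjusted p under 0.05, 3 higher and 2 lower; Npas2 adjusted p = 0.0522). The causes of these changes were not tested. Bhlhe41 was near background in GFP negative cells, which limits what its fold can say.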
